A study of Homo sapiens with 4 samples.

Results

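Described here are 7 nuclear RNA-binding genes: NONO, SFPQ, PSPC1, SAFB, SAFB2, SLTM and MATR3. They were chosen from earlier results of these data, because NONO and SAFB2 gain unannotated acceptors a few nt upstream with SF3B1 K700E. SFPQ and PSPC1 are relatives of NONO, and SAFB and SLTM of SAFB2, whereas MATR3 belongs to neither family. Together the members are 7 of 17144 genes with a spliced read. Their annotated splice sites carried 308 of the 455565 junctions on the main chromosomes, with 190 and 191 junctions in the wild-type libraries and 231 and 213 in the SF3B1 K700E libraries. The choice used the acceptor reads of NONO and SAFB2 in this contrast, so all their values are given as a description without a test.

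Chromatin-bound RNA of K562 cells was sequenced from 2 libraries labelled wild type and 2 labelled SF3B1 K700E (K700E in the plots). SF3B1 is the U2 snRNP protein that contacts the branch-point region, and K700E is a recurrent hotspot substitution in it. The protocol shared by all libraries describes induction of the modified allele with doxycycline at 1 µg/ml and harvest after 4 days, and the labels do not say whether an inducible allele was present in wild type, whether a genotype is 1 clone, or whether replicates were separate cultures. P-values given here reflect how far these samples spread, and that spread may be technical. Extraction buffers contained 25 µM α-amanitin, an inhibitor of RNA polymerase II, and polyadenylated RNA was removed 3 times before ribosomal RNA depletion.

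The libraries held 3576184 to 5313934 uniquely mapped junction reads. The labels call K562, a line from chronic myeloid leukemia with erythroid features, epithelial. All 18 erythroid leukemia markers had reads (2340 to 3003 RPM in sum, reads per 1000000 junction reads), against 12 of 18 epithelial markers (334 to 471), with CDH1, KRT5, KRT7, CLDN3, ESRP1 and GRHL2 at 0. Of 8 lymphoid markers 3 had reads, with CD2, CD79A, MS4A1, LCK and PAX5 at 0, and their sum was 9.78 to 13.1 RPM in wild type against 1.86 to 4.52 in SF3B1 K700E. Of 8 myeloid markers 4 had reads, with MPO, ELANE, CD14 and CEBPA at 0, and their sum was 138 to 178 RPM against 88.4 to 136. The part of either in any result was not tested. Spliced reads of SF3B1 itself were 956 ± 84.1 CPM (reads per 1000000 of the scaled total) in wild type against 773 ± 101 CPM in SF3B1 K700E (mean ± SD, n = 2). That is a log2 change of -0.31 (SE 0.22), which did not pass (edgeR adjusted p = 0.747). Junction reads carry no base calls, so the allele was not read here.

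NONO, SFPQ and PSPC1 form the DBHS family (Drosophila behavior, human splicing), proteins with tandem RNA recognition motifs and a coiled coil through which they pair with each other. They are core proteins of paraspeckles, nuclear bodies built on the long noncoding RNA NEAT1, and act in transcription, splicing and RNA retention. SAFB, SAFB2 and SLTM carry a SAP domain, which binds scaffold attachment regions of DNA, and an RNA recognition motif. MATR3 is a nuclear matrix protein with zinc fingers and RNA recognition motifs that represses splicing of some exons. An acceptor is the 3′ end of an intron, marked by AG, and the U2 snRNP at the branch point guides which AG is reached. On GRCh38 as GENCODE 29 gives it, NONO lies on chromosome X (71283192 to 71301168, plus strand), SFPQ on chromosome 1 (35176378 to 35193148, minus) and PSPC1 on chromosome 13 (19674752 to 19783019, minus). SAFB (5623035 to 5668478, plus) and SAFB2 (5586999 to 5624046, minus) lie on opposite strands of chromosome 19 and overlap at their 5′ ends. SLTM lies on chromosome 15 (58879045 to 58933653, minus) and MATR3 on chromosome 5 (139273752 to 139331677, plus).

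In NONO the acceptor lay in intron 7 of 11 (GRCh38 chromosome X, 71297048 to 71297376, plus strand, transcript ENST00000276079.12), between coding exons of 197 and 85 nt. The unannotated acceptor ended the intron at 71297360, which is 16 nt upstream. The intron's own last bases were not analysed here, so the sequence is shown from the end of the upstream exon. It starts with the last 20 bases before the intron and runs through the downstream exons to the first stop codon, in capitals, in the reading frame that the 16 extra nt would set.
NONO: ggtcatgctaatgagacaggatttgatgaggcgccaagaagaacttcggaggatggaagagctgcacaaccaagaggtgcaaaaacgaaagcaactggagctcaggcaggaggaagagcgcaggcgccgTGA
In SAFB2 the acceptor lay in intron 13 of 20 (chromosome 19, 5595498 to 5598792, minus strand, transcript ENST00000252542.8), between coding exons of 92 and 137 nt. The unannotated acceptor ended the intron at 5595511, which is 13 nt upstream. The same display, for the frame that 13 extra nt would set, reaches its stop sooner.
SAFB2: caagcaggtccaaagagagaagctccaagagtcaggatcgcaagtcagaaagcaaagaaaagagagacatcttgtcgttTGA

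Both extensions leave 1 base after division by 3 and so shift the frame. In NONO, 314 whole codons of 471 precede the intron, and the shifted frame met a stop ending 112 nt after the annotated acceptor, in the second exon after it. In SAFB2, 594 of 953 codons precede the intron, and the stop ended 62 nt into the 137-nt exon. These stops lie 226 nt (NONO) and 861 nt (SAFB2) upstream of the last exon-exon junction of the transcripts. They are the latest possible stops in that frame, because the extension's own bases were not read.

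At the NONO intron, the upstream acceptor had 1 of 141 and 1 of 130 of the donor's unique reads in wild type. In the SF3B1 K700E libraries it had 19 of 144 and 38 of 252. The share was 0.739% ± 0.0424 in wild type against 14.1% ± 1.33 in SF3B1 K700E (SD, n = 2), or 13.4 percentage points higher. Both SF3B1 K700E libraries lay above both wild-type libraries, which the choice of the gene had fixed. Counting error gave wild-type replicates 1 and 2 a 95% Wilson interval of 0.125 to 3.91% and 0.136 to 4.23%, and the SF3B1 K700E replicates one of 8.61 to 19.7% and 11.2 to 20.0%. Such intervals cover counting error only, since reads without molecular identifiers are not independent molecules.

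The share at the SAFB2 intron was higher still. The upstream acceptor had 0 of 96 and 1 of 52 reads in wild type, then 23 of 73 and 40 of 143 in SF3B1 K700E. The share was 0.962% ± 1.36 in wild type against 29.7% ± 2.50 in SF3B1 K700E, or 28.8 percentage points higher. In the wild-type library with no such read, a count of 0 of 96 allows a share of up to 3.12% (3 reads of the total, the limit used here for each count of 0). The plot of upstream-acceptor shares by library shows both genotypes apart in both genes, as they were chosen to be. No multiply mapped read fell on either junction, and the longest overhang of a read was 75 nt in NONO and 71 nt in SAFB2.

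**Figure D1:**
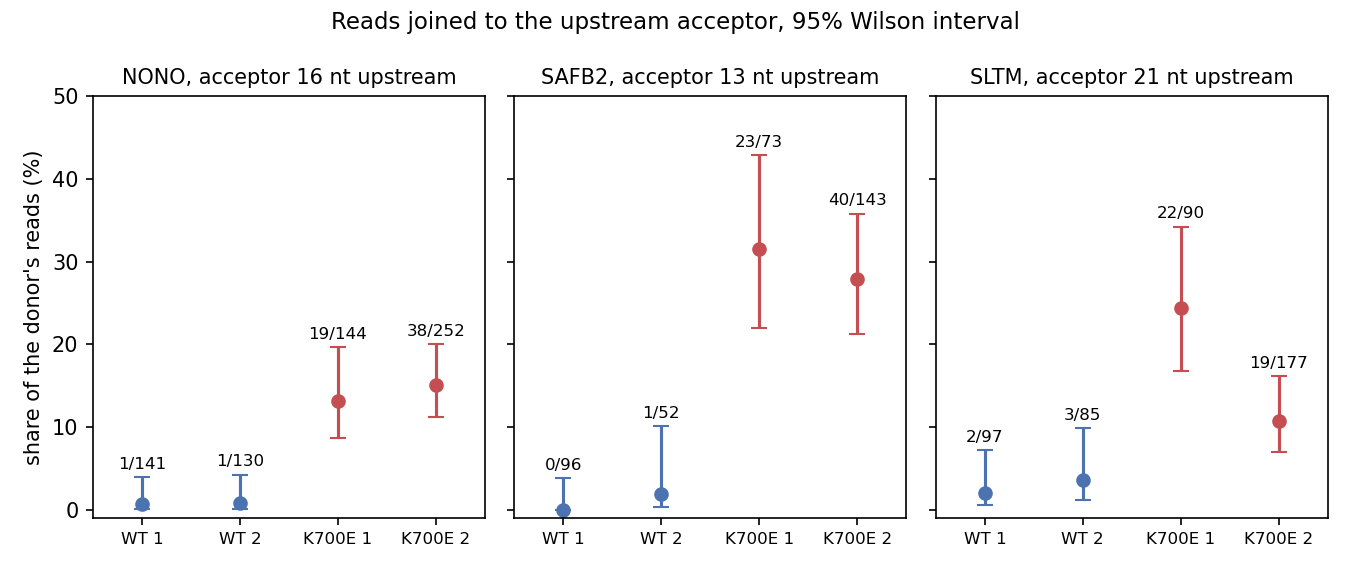
Share of the donor's unique reads joined to the upstream acceptor (y, %) in each library (x) for NONO, SAFB2 and SLTM; points are single libraries, bars 95% Wilson intervals, and numbers upstream reads over donor reads. In NONO and SAFB2 the K700E libraries sit at 13.2 to 31.5% and the wild-type libraries at 0 to 1.92%, whereas the K700E libraries of SLTM differ from each other (24.4% and 10.7%).

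SLTM, the third SAP-domain protein, also gave reads from an upstream acceptor, which the rule that chose the genes does not name. The acceptor lay in intron 2 of 20 (chromosome 15, 58917000 to 58932355, minus strand, transcript ENST00000380516.6), 21 nt upstream of the annotated one. The junction is unannotated in the authors' index. An exon of ENST00000559261.1, a GENCODE 29 transcript of the nonsense-mediated decay class, starts just behind the acceptor. Whether a donor joins that exon, or the transcript starts there, was not analysed here. That transcript gives the bases between the acceptors (chr15:58916980-58917020, minus strand, GRCh38), shown with the AG of the annotated acceptor in capitals and the start of the exon after it.
SLTM: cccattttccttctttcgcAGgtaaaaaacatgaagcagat
The 21 nt add the length of 7 codons behind the 83 whole codons before the intron and give 0 stop codons in frame, so the frame is kept, unlike in NONO and SAFB2.

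The upstream acceptor of SLTM had 2 of 97 and 3 of 85 reads in wild type. In SF3B1 K700E it had 22 of 90 and 19 of 177. The mean share was 2.80% ± 1.04 in wild type against 17.6% ± 9.69 in SF3B1 K700E. Both SF3B1 K700E libraries lay above both wild-type libraries, but replicate 1 at 24.4% was well above replicate 2 at 10.7%, and their Wilson intervals (16.7 to 34.3% and 6.98 to 16.2%) did not meet. The log2 change relative to all junctions of the donor together was 2.48 (SE 0.72). It did not pass over the 23366 junctions tested (edgeR diffSpliceDGE, adjusted p = 0.418, with 0.246 to 1.00 over the alternatives that keep every library). The acceptor reached the minimum of 10 reads only through the SF3B1 K700E libraries, so that filter favoured a higher share there. Its 14.8 percentage points of difference fell to 7.94 when SF3B1 K700E replicate 1 was left out, and were 21.7 when replicate 2 was.

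The intron of NONO that gained the acceptor has a counterpart in each DBHS gene. With the translated coding sequences aligned, NONO shared 61.3% of aligned residues with SFPQ and 62.7% with PSPC1, and 6 introns of NONO sat at the same codon and phase in each. Among them was intron 7, which matches SFPQ intron 5 and PSPC1 intron 4. All 3 introns lie between exons of 197 and 85 nt and split a codon after its first base. Their lengths differ widely, with 329 nt in NONO, 98 nt in SFPQ and 9621 nt in PSPC1. The 85-nt exon behind them is shown to compare the acceptor's exon side, with bases that differ from NONO in capitals (chrX:71297377-71297461, plus; chr1:35189003-35189087, minus; chr13:19741565-19741649, minus).
NONO: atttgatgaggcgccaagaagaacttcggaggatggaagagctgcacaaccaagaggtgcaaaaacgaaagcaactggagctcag
SFPQ: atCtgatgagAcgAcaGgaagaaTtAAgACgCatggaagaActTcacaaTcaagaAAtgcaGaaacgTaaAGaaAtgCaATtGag
PSPC1: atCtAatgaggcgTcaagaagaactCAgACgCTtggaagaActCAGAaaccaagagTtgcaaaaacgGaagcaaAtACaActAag
SFPQ differs from NONO at 24 and PSPC1 at 21 of the 85 bases.

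In PSPC1, an unannotated acceptor 14 nt upstream in this counterpart intron had 0 reads in both wild-type libraries and 3 in each SF3B1 K700E library. These were 3 of 74 reads (4.05%, Wilson interval 1.39 to 11.2%) and 3 of 95 (3.16%, 1.08 to 8.88%). In wild type, 0 of 70 and 0 of 69 reads allow shares of up to 4.29% and 4.35%, so a difference was not detectable at this depth, and the junction, with 6 reads, was below the minimum for the test. The 14 nt would shift the frame, and the first stop past the annotated acceptor ended 6 nt after it. That is the latest possible stop in this frame, because the extension's own bases were not read. The stop is shown in capitals behind the last 20 bases of the upstream exon.
PSPC1: attaatgctaatgaggcaagatcTAA
In SFPQ, no read fell 10 to 30 nt upstream in the counterpart intron, among 582 and 558 reads in wild type against 716 and 1181 in SF3B1 K700E. A count of 0 of 1181 allows a share of up to 0.254% in the deepest library, well under the 15.1% of NONO in the same library.

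SAFB2 and SAFB shared 74.2% of aligned residues and 18 introns. The counterpart of SAFB2 intron 13 is SAFB intron 13, of 2784 nt. No SAFB read fell 10 to 30 nt upstream there, among 68 and 53 reads in wild type against 78 and 124 in SF3B1 K700E. The 0 of 124 allows up to 2.42%, whereas SAFB2 stood at 28.0% in that library. SAFB intron 2 likewise matches the SLTM intron, and had no read 10 to 30 nt upstream among 158, 108, 134 and 234 reads.

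Over all 7 genes, 9 unannotated acceptors lay 10 to 30 nt upstream of a more used annotated acceptor of the same donor, with 11 reads in the wild-type and 171 in the SF3B1 K700E libraries. Only 3 of them reached 10 reads, those of NONO, SAFB2 and SLTM, and the other 6 had 1 to 6 reads each. The libraries also differ in depth, and the count includes the acceptors that chose the genes. Unannotated junctions took 0.117 and 0.438% of NONO's junction reads in wild type against 2.74 and 2.73% in SF3B1 K700E. The range over the other 6 genes was 0.277 to 3.22% in wild type against 0.204 to 6.05% in SF3B1 K700E, and over all junctions it was 4.48 to 4.50% and 4.66 to 5.01%.

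Among 162 unannotated acceptors of the same kind with at least 20 donor reads in every library, the difference was larger than that of NONO at 32, than that of SLTM at 26 and than that of SAFB2 at 5, as the ranked plot shows. Sites entered with 10 reads summed over the 4 libraries, which the deeper SF3B1 K700E libraries can reach alone, so nothing is read from how many lie above 0. By the distance between the 4 library shares, the acceptors most like that of NONO were in DGCR2 (24 nt upstream, 0 and 0% in wild type, 13.5 and 13.9% in SF3B1 K700E), ACSM3 (14 nt; 0 and 0%, 13.6 and 13.2%) and a site shared by ABCF2 and AC021097.2 (17 nt; 0 and 0%, 11.4 and 13.6%). Those most like SAFB2 were in MINDY4 (14 nt; 2.15 and 3.28%, 25.3 and 25.2%) and THADA (19 nt; 0 and 0%, 26.4 and 23.1%). The distances were 1.62 to 2.56 percentage points for NONO and 7.29 and 7.32 for SAFB2, over 4 libraries.

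**Figure D2:**
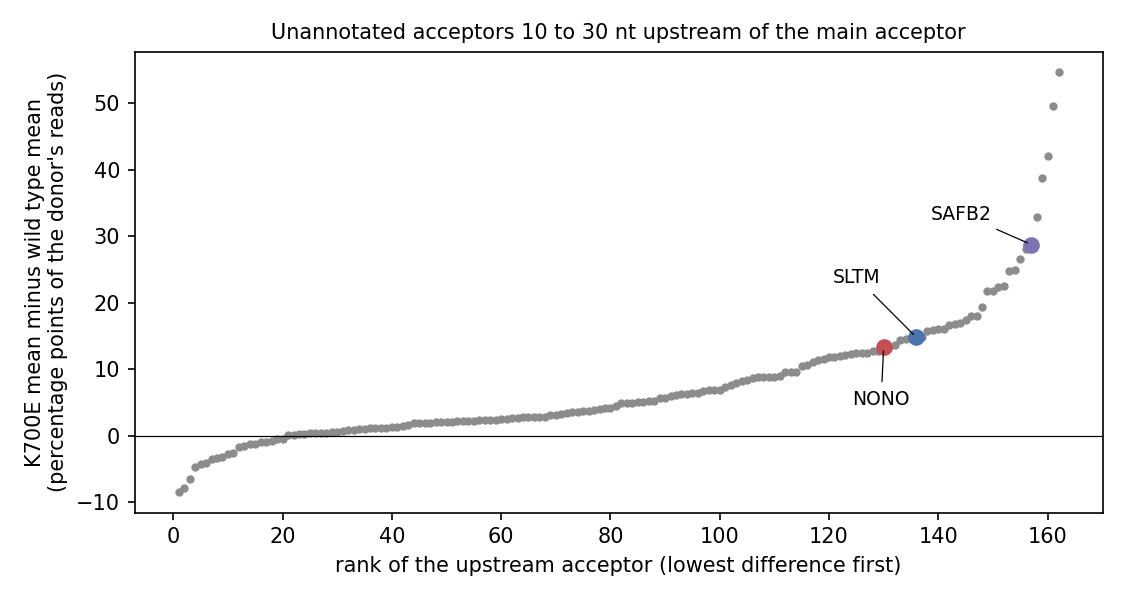
Difference in mean share of the donor's reads, SF3B1 K700E minus wild type (y, percentage points), for 162 unannotated acceptors 10 to 30 nt upstream of the main one, ranked (x); each point is an acceptor and the 3 coloured ones are labelled. SAFB2 has 5 acceptors above it, SLTM 26 and NONO 32.

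The acceptor-choice test covered 56 junctions of the 7 genes, and 39 belonged to SFPQ, PSPC1, SAFB, SLTM and MATR3. None of these 39 passed (edgeR, Benjamini-Hochberg adjusted over all junctions), with 1 below an unadjusted p of 0.05. That was the SLTM acceptor, which reached the read minimum only through the SF3B1 K700E libraries. limma's voom test also called 0, with 2 below 0.05. Over all junctions, 32 of 23366 passed, or 0.137%. At that rate a count of 0 among 39 says little about these genes. Donor choice was tested at 42 junctions, 27 of them in these 5 genes, and 0 passed, with 1 below 0.05 unadjusted by edgeR and 0 by voom. The background there was 2 of 22976 junctions, or 0.0087%.

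**Figure D3:**
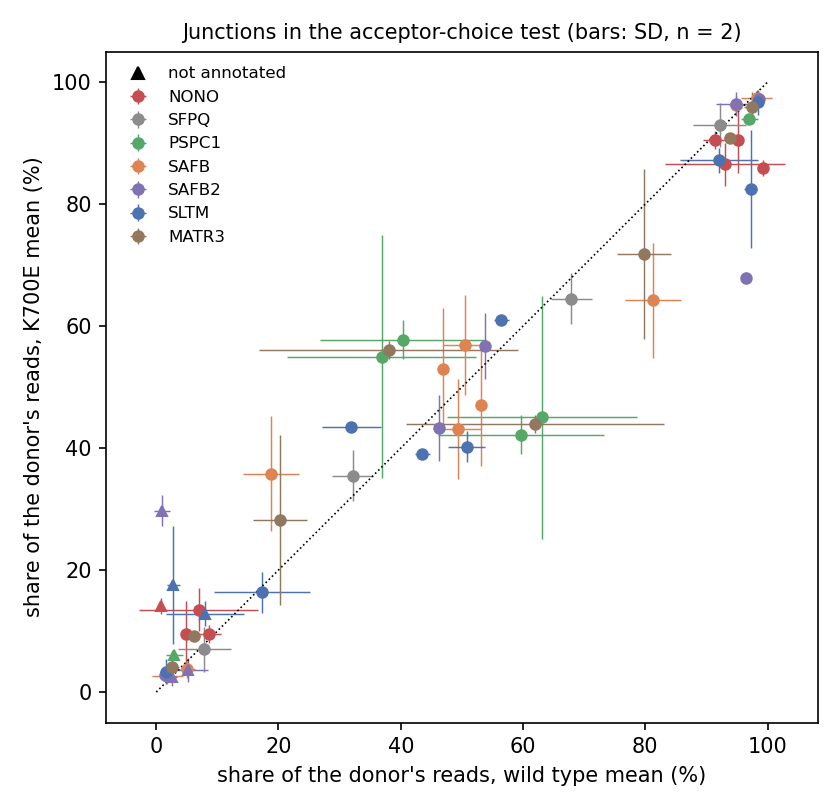
Mean share of the donor's reads in wild type (x, %) and in SF3B1 K700E (y, %) for the 56 junctions of the 7 genes in the acceptor-choice test; bars are SD over 2 libraries, colours are genes, triangles are unannotated junctions and the dotted line marks equal shares. The triangles of SAFB2 (0.962 and 29.7%), SLTM (2.80 and 17.6%) and NONO (0.739 and 14.1%) stand above the line at the left.

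Coordinates below are the first and last bases of introns. Annotated junctions that took 5 to 95% of a donor's reads in wild type, with 20 reads in every library, numbered 31 in the 7 genes, and in 8 of them the libraries of the genotypes did not overlap. The same held for 35.1% of 7110 such junctions over all genes. By share of an acceptor, 8 of 24 did not overlap, against 36.1% of 7245. Neither count stands above the background, and a choice between 2 sites enters it with both. None of those in the 5 tested genes passed. In SAFB intron 18 of 20, 2 acceptors 6 nt from each other share the donor at 5667165. The downstream one (intron end 5667352) took 15.6 and 21.95% of the donor's reads in wild type against 42.4 and 29.2% in SF3B1 K700E, higher in both libraries. The log2 change of 0.85 (SE 0.58) did not pass (edgeR adjusted p = 1.00). Another SAFB pair of acceptors, 3 nt apart at 5661517 and 5661520, was used about equally in each genotype, with 49.4% ± 3.62 and 43.1% ± 8.22 for the upstream one. The other SAFB choices overlapped between the genotypes. Donor 5641659 skipped to 5645336 in 4.22 and 5.98% of its reads in wild type against 2.703 and 4.71% in SF3B1 K700E, and that junction took 5.69 and 6.36% of its acceptor's reads against 2.37 and 6.70%. The main donor of that acceptor, 5641947, took 91.1 and 84.5% against 91.1 and 89.9%. Donor 5648044 joined 5648988 in 46.9% ± 0.665 against 52.9% ± 10.02 of its reads, and its longer junction took 28.3 and 38.5% of the reads of acceptor 5649925 against 41.3 and 34.3%.

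SFPQ, which pairs with NONO in paraspeckles, has alternative 3′ ends, and its acceptor at 35178037 is reached from 3 donors. The nearest donor (35178664) had 6 of 24 and 5 of 27 reads of that acceptor in wild type, then 2 of 25 and 2 of 52 in SF3B1 K700E. The share was 21.8% ± 4.58 in wild type against 5.92% ± 2.94 in SF3B1 K700E, lower in both libraries. The log2 change of -1.96 (SE 0.90) did not pass (edgeR adjusted p = 1.00). The 2 acceptors of the donor at 35177318, 3 nt apart, did not separate the genotypes, with 32.1% ± 3.38 and 35.5% ± 4.13 for the downstream one. The middle donor of acceptor 35178037, at 35181134, took 62.5 and 59.3% of its reads in wild type against 76.0 and 75.0% in SF3B1 K700E, higher in both (edgeR adjusted p = 1.00). The farthest, at 35187000, took 12.5 and 22.2% against 16.0 and 21.2%, overlapping. Of the reads of that farthest donor, this acceptor had 4.84 and 10.9% in wild type against 4.44 and 9.65% in SF3B1 K700E, overlapping as well.

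In SLTM, donor 58901259 is spliced to 3 acceptors. The junction to 58899938 took 28.6 and 35.3% of its reads in wild type against 44.0 and 42.9% in SF3B1 K700E. The junction to 58898853, which skips the exon between, took 48.6 and 52.9% and then 42.0 and 38.5%. Both pairs lay apart, and neither passed (edgeR adjusted p = 1.00 for each). The third acceptor, 58899884, took 22.9 and 11.8% against 14.0 and 18.7%, overlapping.

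Further towards the 3′ end of SLTM, donor 58892896 skipped an exon to reach 58889555 in 44.4 and 42.7% of its reads in wild type against 39.0 and 39.0% in SF3B1 K700E, lower in both (edgeR adjusted p = 1.00). By share of that acceptor the same junction overlapped, with 45.9 and 45.3% against 48.4 and 43.2%. Acceptor 58898853 was reached from the donor at 58899468 in 55.7% ± 0.997 of its reads in wild type against 51.8% ± 0.625 in SF3B1 K700E, lower in both (edgeR adjusted p = 1.00). The annotated junction from 58897114 to 58894583 took 96.6 and 87.5% of its donor's reads against 85.7 and 88.6%, overlapping. An unannotated SLTM junction from 58897114 to 58894194, which skips an exon, took 11.1 and 33.3% of its acceptor's reads in wild type against 40.0 and 35.7% in SF3B1 K700E, over only 9 to 14 reads a library.

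Of 139 unannotated junctions of the 7 genes, 10 had at least 10 reads. In PSPC1, 2 of these, chosen after their values were seen, lie on both sides of an unannotated exon on chromosome 13. The junction into it (19759694 to 19772241) had 2 and 4 wild-type reads against 8 and 9 from SF3B1 K700E, or 2.02 and 3.92% against 6.61 and 5.56% of its donor's reads. The junction out of it (19759419 to 19759528) had 3 and 3 reads, then 7 and 8. Both SF3B1 K700E libraries were higher, and neither junction passed (edgeR adjusted p = 1.00 for each). Both junctions reached 10 reads only through the SF3B1 K700E libraries, so nothing is read from that direction. How often unannotated junctions of all genes lie apart in this way was not analysed here.

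In PSPC1, donor 19730238 is joined to acceptors at 19677824 and 19709600. The farther one took 74.1 and 52.2% in wild type against 59.1 and 31.0% in SF3B1 K700E, and the groups overlapped. In MATR3, donor 139293806 joins the large coding exon behind 139307238 or skips it to 139314674. Skipping took 17.1 and 23.3% in wild type against 38.1 and 18.4% in SF3B1 K700E, and the groups overlapped. By share of acceptor 139314674, skipping took 18.8 and 15.6% against 25.4 and 18.0%, overlapping too. A second MATR3 choice at donor 139322968 gave the nearer acceptor, 139325295, 6.91 and 5.49% in wild type against 9.33 and 8.89% in SF3B1 K700E, apart but not past the test (edgeR adjusted p = 1.00).

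The annotated alternatives of NONO and SAFB2 are given as a description. In the untranslated 5′ part of NONO, the junction from 71283722 to 71290628 took 10.0 and 7.37% of its donor's reads in wild type against 8.41 and 10.6% in SF3B1 K700E, with overlap. The other NONO choices there overlapped as well. Donor 71284454 joined 71284983 in 0 and 13.8% of its reads in wild type against 10.99 and 16.0% in SF3B1 K700E. Acceptor 71290628 was reached from 71283722 (14.5 and 10.0% against 8.82 and 13.6%), from 71284454 (83.9 and 80.0% against 79.4 and 80.9%) and from 71285098 (1.61 and 10.0% against 11.8 and 5.45%). In SAFB2, acceptor 5613528 is reached from donors 4 nt apart, and the inner one (5616127) took 19.4 and 21.6% in wild type against 40.5 and 22.4% in SF3B1 K700E. The SAFB2 junction from 5612539 to 5610689, which skips an exon, took 51.2 and 43.1% of its acceptor's reads in wild type against 38.1 and 35.6% in SF3B1 K700E, lower in both libraries. By share of its donor it overlapped, with 46.7 and 45.8% against 47.1 and 39.5%. Acceptor 5610096 was reached from the nearer donor, 5610288, in 41.9 and 23.7% against 26.8 and 15.6%, overlapping. The 3 other SAFB2 junctions of this kind were main forms at 90.6 to 98.2% in each library, all overlapping.

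**Figure D4:**
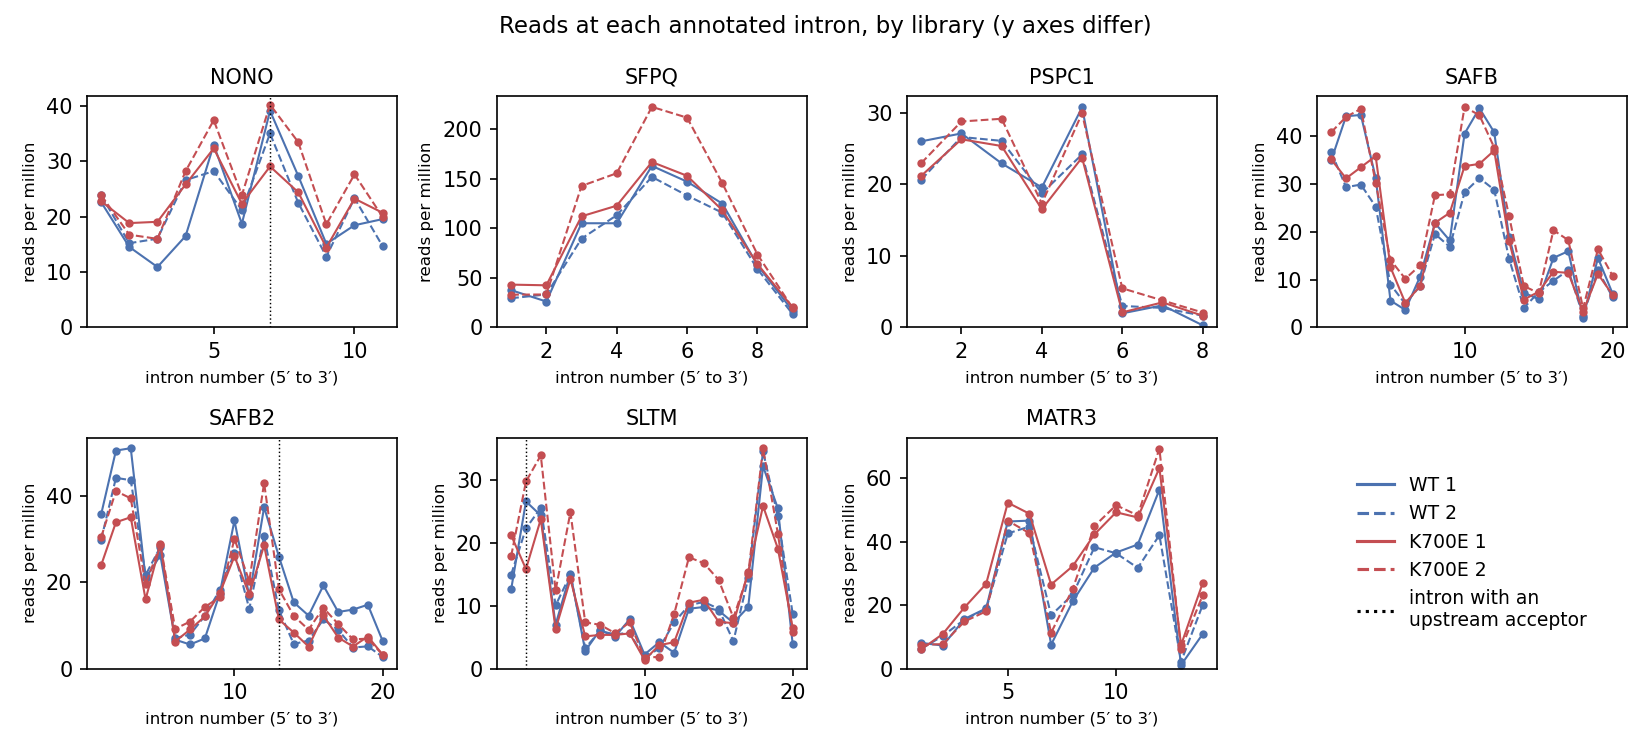
Unique reads (y, RPM of all junction reads, scale differs by panel) at each intron of a coding transcript, numbered 5′ to 3′ (x), one line per library; dotted lines mark the introns with an upstream acceptor past 10 reads in NONO, SAFB2 and SLTM. Every intron shown had reads in all 4 libraries, which the choice of transcript favoured, and the profiles of both genotypes broadly follow the same peaks. MATR3 intron 13, picked after its values were seen, had 1.12 and 2.17 RPM in wild type against 7.45 and 6.21 RPM in SF3B1 K700E. No other junction at its donor or acceptor passed the read minimum, so neither choice test covers it.

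The coding transcripts in the plot of reads per intron were those with the most introns read in every library, less introns not so read. All their introns were read in every library, from 8 introns in PSPC1 to 20 in SAFB, SAFB2 and SLTM, which that choice favoured. Per intron, SFPQ had the most spliced reads of the members. By the transcript with the most reads per intron, the median was 97.1 RPM in wild type for SFPQ, 27.3 for SAFB2, 27.1 for MATR3, 25.0 for NONO, 23.3 for PSPC1, 15.1 for SAFB and 14.4 for SLTM. Some of those transcripts are partial (3 introns in PSPC1, 5 in NONO and SAFB2, 6 in SLTM). By the fuller transcripts plotted, SFPQ stayed at 97.1, MATR3, NONO and PSPC1 lay at 20.9, 20.6 and 20.5, SAFB and SAFB2 at 15.1 and 14.98, and SLTM at 9.15. The order below SFPQ therefore depends on the transcript, and neighbours within 1 SD of each other (1.10 to 2.94) are not ordered.

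For spliced-read totals, none of SFPQ, PSPC1, SAFB, SLTM and MATR3 passed the test, against 102 of 10827 genes (0.942%) called in either direction. The SE of their log2 changes was 0.21 to 0.24 with 2 libraries per group, so a modest change could go uncalled. None of the 5 was below an unadjusted p of 0.05 by edgeR with group as the only term or by DESeq2, which also called 0. MATR3 had 389 and 392 CPM in wild type against 514 and 473 CPM in SF3B1 K700E, with no overlap. The log2 change of 0.34 (SE 0.21) did not pass (edgeR adjusted p = 0.689). Introns annotated for both MATR3 and SNHG4, a small nucleolar RNA host, were left out. The read-through gene between them carries the symbol MATR3, so its introns under that symbol alone count in the MATR3 total. SNHG4 itself had 5.91 ± 0.145 CPM in wild type against 10.2 ± 2.68 CPM in SF3B1 K700E, which did not pass (edgeR adjusted p = 0.623).

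SFPQ had 940 and 865 CPM in wild type against 956 and 1221 CPM in SF3B1 K700E. Both SF3B1 K700E libraries were higher, the lower of them only just. The log2 change of 0.27 (SE 0.22) did not pass (edgeR adjusted p = 0.790). PSPC1 had 153 and 145 CPM in wild type against 137 and 160 CPM in SF3B1 K700E, overlapping, with a log2 change of 0.00 (edgeR adjusted p = 0.999). SAFB had 493 and 396 CPM in wild type against 445 and 573 CPM in SF3B1 K700E, overlapping, with a log2 change of 0.195 (edgeR adjusted p = 0.884). SLTM had 262 and 281 CPM in wild type against 250 and 350 CPM in SF3B1 K700E, overlapping, with a log2 change of 0.14 (edgeR adjusted p = 0.933). The libraries of 1 genotype differed as much as the genotypes for these 3 genes.

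NONO, as a description, had 262 and 273 CPM in wild type against 286 and 326 CPM in SF3B1 K700E, without overlap. SAFB2 had 489 and 398 CPM in wild type against 365 and 443 CPM in SF3B1 K700E, overlapping. Reads of the unannotated acceptors are not part of these totals, which count annotated introns only. NEAT1, the RNA on which paraspeckles assemble, had 86.1 and 122 CPM in wild type against 137 and 104 CPM in SF3B1 K700E, and its log2 change of 0.21 did not pass (edgeR adjusted p = 0.892). Fewer cells carrying a transcript and less RNA per cell cannot be told apart in such bulk samples.

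**Figure D5:**
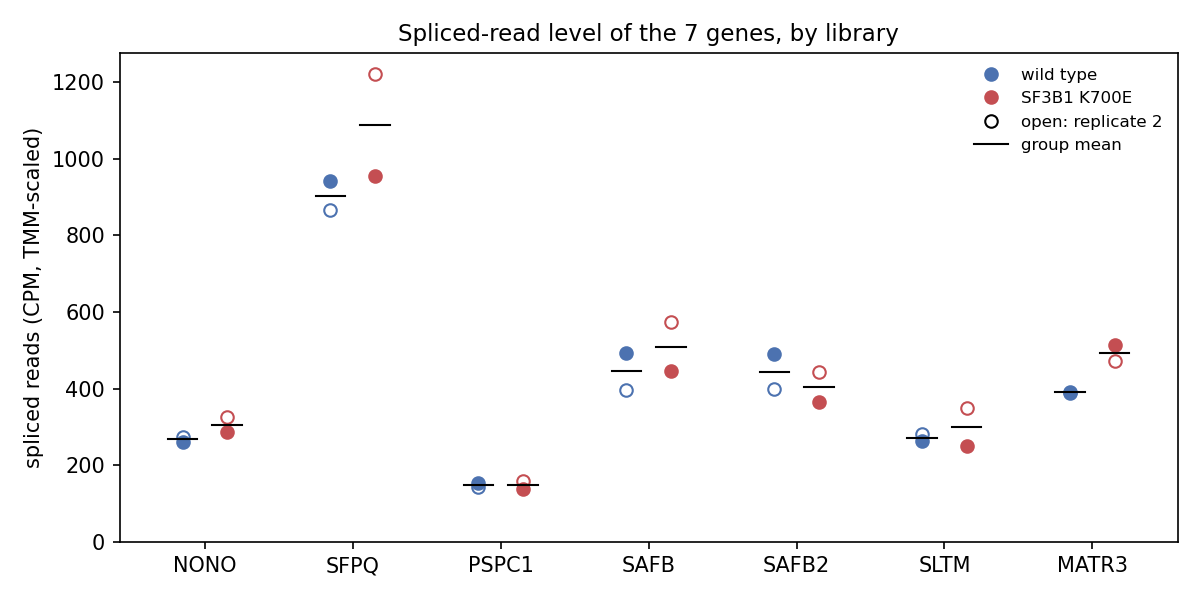
Spliced-read level (y, CPM after TMM scaling) of the 7 genes (x) in each library; filled points are replicate 1, open points replicate 2, and lines are group means. SFPQ lies at 865 to 1221 CPM, the others below 600 CPM, and none of the 5 tested genes passed.

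Of 30 other paraspeckle proteins, 29 were tested and 0 passed in either direction (edgeR), with a median log2 change of 0.06, and 2 were at an unadjusted p below 0.05 (6.90%, against 10.1% of all genes tested). These were BCL11A and HNRNPH3, an hnRNP protein with 242 and 248 CPM in wild type against 157 and 164 CPM in SF3B1 K700E (log2 change -0.61, edgeR adjusted p = 0.301). The lowest was BCL11A, a transcription factor, with 4.28 and 4.81 CPM in wild type against 1.26 and 0.623 CPM in SF3B1 K700E (log2 change -2.26, edgeR adjusted p = 0.186). Of 24 other SAP-domain and nuclear matrix proteins, 23 were tested and 0 passed, with a median of 0.07 and 1 below 0.05 (4.35%). That gene was CCAR1, a SAP-domain coactivator, with 649 and 770 CPM in wild type against 376 and 382 CPM in SF3B1 K700E (log2 change -0.91, edgeR adjusted p = 0.0890). The 7 members had a median of 0.19, and all 10827 genes a median of 0.00. DESeq2 called 0 of the paraspeckle list, and in the other list it called CCAR1 alone (DESeq2 adjusted p = 0.0151), against 220 of all 10827 genes, or 2.03%.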

How the data were processed

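Trimmed read pairs were aligned by the authors against GRCh38.p12 and GENCODE 27 junctions, using STAR 2.7.10a without a second pass, per the run logs. GENCODE 22 junctions were added at mapping. The submitters' processing notes name hg38. The authors deposited junction files whose values are raw counts of uniquely and multiply mapped reads per junction, without normalization, and unique reads on the main chromosomes were used. Unspliced RNA was not analysed here, and strand came from the splice motif. Genes, introns and transcript sequences came from GENCODE 29, which held 99.7% of the annotated junctions.

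Junctions of 1 donor (acceptor choice) or 1 acceptor (donor choice) formed clusters, with at least 2 junctions of 10 or more unique reads over the 4 libraries. The test was diffSpliceDGE on edgeR 4.0.16 quasi-likelihood fits (R 4.3.3), TMM scaling, group as the only term, and Benjamini-Hochberg adjustment at 0.05 over all junctions. Gene totals (introns of 1 gene symbol, filterByExpr) were tested with edgeR's quasi-likelihood test, and values are CPM. Alternatives were other scaling, limma 3.58.1 voom, DESeq2 1.42.0, no filter, multiply mapped reads, an overhang of at least 20 nt, a replicate block and each library left out. A share is a junction's reads over those of all junctions of its donor (or acceptor) past the read minimum. At the counterpart introns, it is over the reads of the annotated acceptor and of acceptors 10 to 30 nt upstream only. A standard error is the log2 change over the square root of F. Proteins were translated and aligned with BLOSUM62 (gap penalties 11 and 1, Biopython 1.88). The edgeR fits of acceptor choice and of gene totals were tried on simulated counts, and the donor-choice fit, voom and DESeq2 were not.

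The members and lists were chosen with earlier results of these data known. Named are all members, called junctions, unannotated junctions with 10 reads that lie apart by 5 points, annotated alternatives of 5 to 95% in wild type over 20 reads a library (a choice between 2 sites by 1 of them), the 3 nearest acceptors (1 is not reported here), and list genes past the threshold. The acceptor of PSPC1, BCL11A, HNRNPH3, CCAR1, SNHG4, NEAT1, MATR3 intron 13 and the fuller transcripts were chosen after their values were seen. The labels do not say that replicate numbers pair the samples.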

Additional observations from a re-analysis of the deposited data

Results flagged for a closer look

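The upstream acceptor of PSPC1, 14 nt upstream in the counterpart of NONO's intron, had 6 reads in the SF3B1 K700E libraries and 0 in wild type. It was picked out because these reads are in no test, being below the minimum of 10.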

How the results depend on the processing

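For SFPQ, PSPC1, SAFB, SLTM and MATR3, no junction was called for acceptor choice under 11 alternatives or for donor choice under 10, and no gene was called for its level under 10, so the count was 0 in each. That includes the replicate block, which also gave 0 for all 3. Deviations of same-numbered libraries correlated at -0.33 over 8306 genes, so they tended to go in opposite directions. A block that crosses the numbers, added after seeing the data, gave 0 as well. With it, the level of MATR3 had an unadjusted p of 0.0465 (edgeR, adjusted p = 0.288). What the libraries share across the numbers was not tested. With the replicate block, 19 junctions rose by acceptor choice over the whole table, against 31. Over all junctions, other counts of rising acceptors were 9 by voom, 13 with no read minimum and 5 to 11 with a library left out. Over all genes, 37 rose and 65 fell, against 64 and 156 by DESeq2, 135 and 327 with the crossed block, and 89 to 128 and 176 to 240 with a library left out.

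The difference in the upstream acceptor's share was 12.5 to 14.3 percentage points in NONO and 27.01 to 30.6 in SAFB2 under 6 alternatives each. The log2 change of SLTM's acceptor was 1.92 to 3.10. The log2 change in level turned sign for PSPC1 with multiply mapped reads (0.011), no expression filter (0.0094), and without wild type replicate 1 (0.04) or SF3B1 K700E replicate 1 (0.11). It turned for SAFB2 without wild type replicate 1 (0.022) or SF3B1 K700E replicate 1 (0.0054), and for SLTM without SF3B1 K700E replicate 2 (-0.10). With a library left out in turn, the ranges were -0.098 to 0.11 in PSPC1, -0.26 to 0.022 in SAFB2, -0.10 to 0.38 in SLTM, 0.022 to 0.37 in SAFB, 0.10 to 0.44 in SFPQ, 0.12 to 0.29 in NONO and 0.29 to 0.42 in MATR3. The cause was not tested. With 52 to 252 donor reads a library at the 3 upstream acceptors, counting error alone spans several percentage points.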
